A study of Danio rerio with 6 samples.

Results

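The heart muscle and heart field genes examined here are a set of 10 zebrafish genes: myl7, myh6, vmhc, tnnt2a, nppa, nkx2.5, gata4, gata5, hand2 and tbx5a. Members were taken as every array probe set whose only annotated gene symbol was one of these names. A probe set is a group of short probes on the array that are read together as 1 value. The rule found 8 probe sets for 7 genes among the 15502 probe sets tested, with 2 probe sets for tbx5a. For myh6, vmhc and nppa no probe set carried the symbol, so the atrial myosin heavy chain and the natriuretic peptide of the atrium were not analysed here. RefSeq now lists vmhc as a synonym of myh7, and the probe set annotated to myh7 is given separately below and is not counted among the 8.

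RNA came from pools of whole, dechorionated wild type AB embryos at 36 h post fertilisation. A group of 3 arrays held embryos exposed to 5 µM 11,12-EET between 24 and 36 h, a lipid mediator formed from arachidonic acid by cytochrome P450 epoxygenases. The other group of 3 arrays held embryos kept over the same hours in DMSO, its solvent. The labels give 25 embryos per treatment group and call the arrays biological replicates, without saying whether the pools came from separate clutches, so the p-values measure only the spread between these pools.

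In the zebrafish embryo, heart precursors arise on both sides of the lateral mesoderm, move to the midline and fuse into a beating tube. The transcription factors of the heart field (the Nkx, GATA, Hand and T-box proteins) act in those precursors, and the genes of the contractile apparatus are switched on as the cells become muscle. Most of the transcription factors are also used outside the heart: hand2 in the pharyngeal arches and fin buds, tbx5a in the fin buds and eye, and the GATA factors in the endoderm. A whole-embryo measurement adds all these sites together.

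No heart gene in the set showed a difference between EET and DMSO embryos that passed the test against the spread between pools. Of the 8 probe sets 7 were lower and 1 was higher in EET by group mean, with a median log2 difference of -0.17. Over all tested probe sets 50.5% were lower, with a median of 0.00 (-0.0023). In limma's moderated test, adjusted over all probe sets, 0 of the 8 passed an adjusted p under 0.05, 0 had an unadjusted p under 0.05, and in 0 the groups failed to overlap. Over all probe sets these shares were 0% passing, 5.27% at the unadjusted threshold and 11.7% not overlapping. The smallest unadjusted p in the set was 0.143, for gata4, and the smallest adjusted p was 0.932. In bulk RNA of this kind, fewer cells of a type and less RNA per cell cannot be told apart.

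How narrowly a difference was bounded depended on the level of the probe set. The probe sets of myl7, tnnt2a, gata5 and hand2 lay at or above the median level of all probe sets, 4.81 on the log2 scale, and are called the brighter members here. Those of nkx2.5 and gata4 and both of tbx5a lay below it, at mean levels of -0.23 to 3.50. No detection calls were used, so whether these 4 rose above background is unknown. The SD between replicates, pooled over the groups, was 0.068 to 0.183 in the brighter members and 0.441 to 1.85 in the dimmer ones. Its median over all probe sets was 0.145 above the median level and 0.505 below it. In a separate fit to the 7751 brighter probe sets alone, 0 of the 4 brighter members passed, the smallest adjusted p being 0.828 in limma, where 0.0774% of those probe sets passed. Of these 4 members 3 were lower in EET by group mean, against 50.1% of the brighter probe sets. At an unadjusted p under 0.05 that fit gave 0 of 4, against 6.66% of the brighter probe sets.

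**Figure D1:**
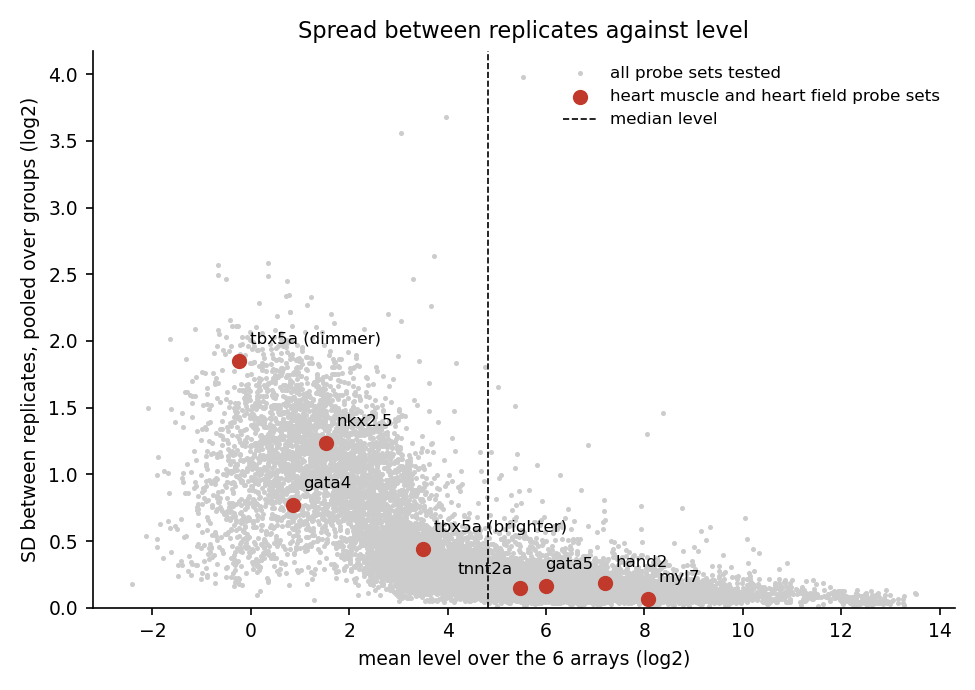
Each grey point is a probe set, plotted by its mean level over the 6 arrays (log2, x axis) and its SD between replicates pooled over the EET and DMSO groups (log2, y axis). The 8 heart muscle and heart field probe sets are red and the dashed line is the median level of 4.81. The brighter members have SDs of 0.068 to 0.183 and the dimmer ones 0.441 to 1.85.

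The contractile gene myl7 encodes the regulatory myosin light chain of heart muscle, present in atrium and ventricle, and its promoter is widely used to label the zebrafish heart. Its log2 level was 8.12, 8.003 and 8.19 in the 3 EET pools, against 8.06, 8.03 and 8.02 in the 3 DMSO pools. The EET values spread on both sides of the narrow DMSO range, 1 of them below it and 2 above it. The mean was 8.10 ± 0.09 in EET and 8.04 ± 0.02 in DMSO (SD, n = 3 each), a log2 difference of 0.07 ± 0.10 (SE; adjusted p = 0.958 in limma). The 95% interval of the difference ran from -0.17 to 0.31, which is a ratio of EET to DMSO between 0.886 and 1.24. This was the tightest bound in the set, and the replicate SD of 0.068 compares with a median of 0.124 for probe sets within 0.5 of its level.

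Cardiac troponin T, encoded by tnnt2a, anchors the troponin complex to the thin filament, and zebrafish embryos without it have a heart that does not beat. The log2 levels of tnnt2a were 5.33, 5.52 and 5.37 in EET and 5.74, 5.50 and 5.39 in DMSO. The groups overlapped, with 2 EET pools just below the lowest DMSO pool and DMSO replicate 1 above all others. The means were 5.41 ± 0.10 in EET and 5.54 ± 0.18 in DMSO, a difference of -0.14 ± 0.13 (adjusted p = 0.943 in limma), with a 95% interval from -0.47 to 0.20. Without DMSO replicate 1 the difference was -0.04.

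The ventricular myosin heavy chain gene vmhc, reached through its gene identifier under the name myh7, encodes the motor protein of the ventricle. Levels of myh7 were 6.73, 7.001 and 6.87 in EET, against 7.11, 7.01 and 6.95 in DMSO. Of the EET pools 2 lay below the lowest DMSO pool and the third lay inside the DMSO range. The difference was -0.16 ± 0.11 (adjusted p = 0.932 in limma), with a 95% interval from -0.44 to 0.13. A further probe set is annotated to myh7 together with myh7l, and is not assigned to a gene here.

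**Figure D2:**
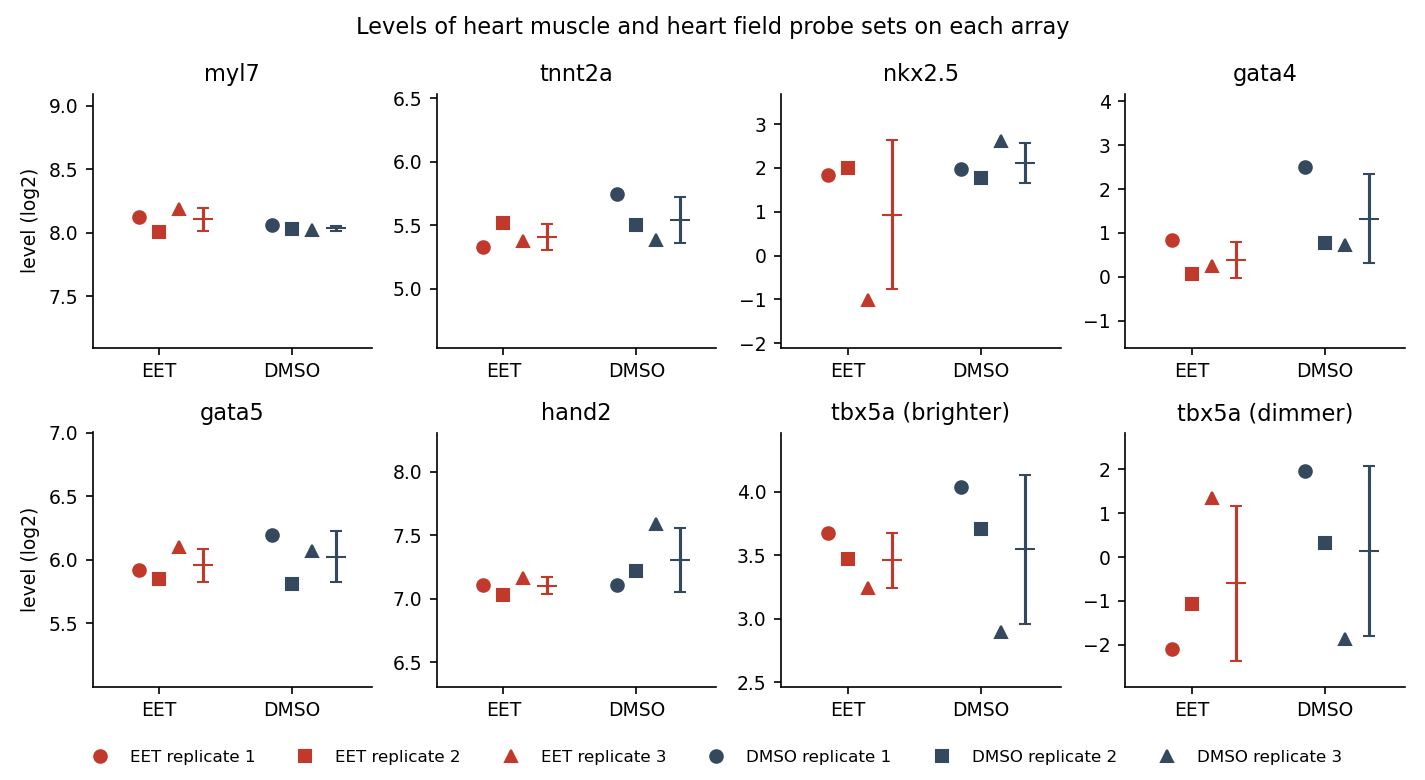
Log2 level (y axis) of each of the 8 heart muscle and heart field probe sets on the 3 EET arrays (red, left) and the 3 DMSO arrays (dark blue, right); the marker shape gives the replicate number, and the bar beside each group is its mean ± SD. Axes differ in position and span between panels, the dim probe sets nkx2.5, gata4 and tbx5a (dimmer) being drawn on a wider scale. The EET and DMSO values overlap in all 8 panels.

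Among the heart field factors, hand2 and gata5 had the smallest replicate SDs, 0.183 and 0.167. Both lay above the medians of 0.135 and 0.157 for probe sets within 0.5 of their levels. The basic helix-loop-helix factor encoded by hand2 is needed in zebrafish for heart precursors to form muscle and for the pharyngeal arches and fin buds. Levels of hand2 were 7.11, 7.03 and 7.16 in EET, against 7.11, 7.22 and 7.59 in DMSO. Of the EET pools 2 lay just below the lowest DMSO pool, and DMSO replicate 3 lay above all others. The means were 7.10 ± 0.07 in EET and 7.31 ± 0.25 in DMSO, a difference of -0.20 ± 0.15 (adjusted p = 0.932 in limma) with a 95% interval from -0.59 to 0.18. Leaving out DMSO replicate 3 brought the difference to -0.06, and in the pair of replicate 3 arrays alone it was -0.42.

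The zinc finger factor encoded by gata5 acts early in zebrafish heart precursors and in the endoderm. Its levels were 5.92, 5.85 and 6.10 in EET and 6.20, 5.81 and 6.07 in DMSO. The EET values lay wholly inside the DMSO range. The difference was -0.07 ± 0.14 (adjusted p = 0.973 in limma), with a 95% interval from -0.43 to 0.29, a ratio between 0.741 and 1.22. Without DMSO replicate 1 the difference was 0.02, on the other side of 0.

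**Figure D3:**
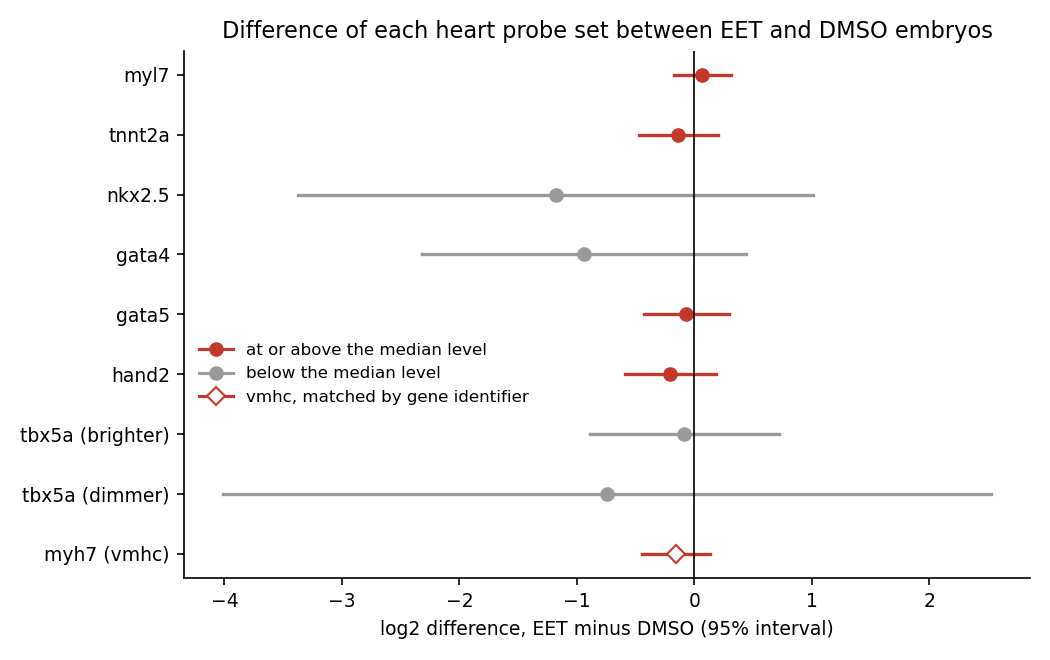
Log2 difference, EET minus DMSO (x axis), of each heart probe set with its 95% interval from limma fitted over all 15502 probe sets. Red marks probe sets at or above the median level, grey those below it, and the open diamond the myh7 probe set that stands for vmhc. All 9 intervals include 0, and those of nkx2.5, gata4 and the dimmer tbx5a probe set are the widest, followed by that of the brighter tbx5a probe set.

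The remaining field factors were dim, and their differences moved with single arrays. The related GATA factor gene gata4 had levels of 0.84, 0.07 and 0.24 in EET, against 2.496, 0.76 and 0.72 in DMSO. DMSO replicate 1 stood above the other 5 arrays, and of the EET pools 2 lay below the lowest DMSO pool. The difference was -0.94 ± 0.55 (unadjusted p = 0.143, adjusted p = 0.932 in limma), with a 95% interval from -2.32 to 0.44, and it was -0.35 without DMSO replicate 1.

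The homeobox gene nkx2.5, an early marker of heart precursors, had levels of 1.83, 1.99 and -1.02 in EET, against 1.96, 1.76 and 2.62 in DMSO. EET replicates 1 and 2 lay inside the DMSO range, and EET replicate 3 alone lay far below it. The difference of -1.18 ± 0.87 (adjusted p = 0.932 in limma) had a 95% interval from -3.37 to 1.01. It was -0.20 without EET replicate 3, and 0.05 without both replicate 3 arrays. On a log2(2^value + 32) scale, which compresses low levels, the differences were -0.07 for nkx2.5 and -0.07 for gata4.

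The T-box gene tbx5a, required in zebrafish for heart looping and for the pectoral fin buds, was read by a pair of probe sets. The brighter one had levels of 3.67, 3.47 and 3.24 in EET, against 4.04, 3.71 and 2.899 in DMSO. The EET values lay inside the DMSO range, and the difference was -0.09 ± 0.32 (adjusted p = 0.988 in limma; 95% interval from -0.89 to 0.72). The dimmer probe set of tbx5a read -2.09, -1.08 and 1.36 in EET, against 1.97, 0.32 and -1.87 in DMSO. Its replicate SD of 1.85 compares with a median of 1.07 for probe sets within 0.5 of its level, and its difference was -0.74 ± 1.30 (adjusted p = 0.968 in limma; 95% interval from -4.01 to 2.53). In DMSO the tbx5a probe sets ranked the 3 pools in the same order, and in EET in opposite orders. Both turned to the other side of 0 without DMSO replicate 1, at 0.16 for the brighter and 0.17 for the dimmer. In the replicate 3 pair alone they were 0.34 and 3.23. With log2(2^value + 32) they were -0.04 and -0.03.

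**Figure D4:**
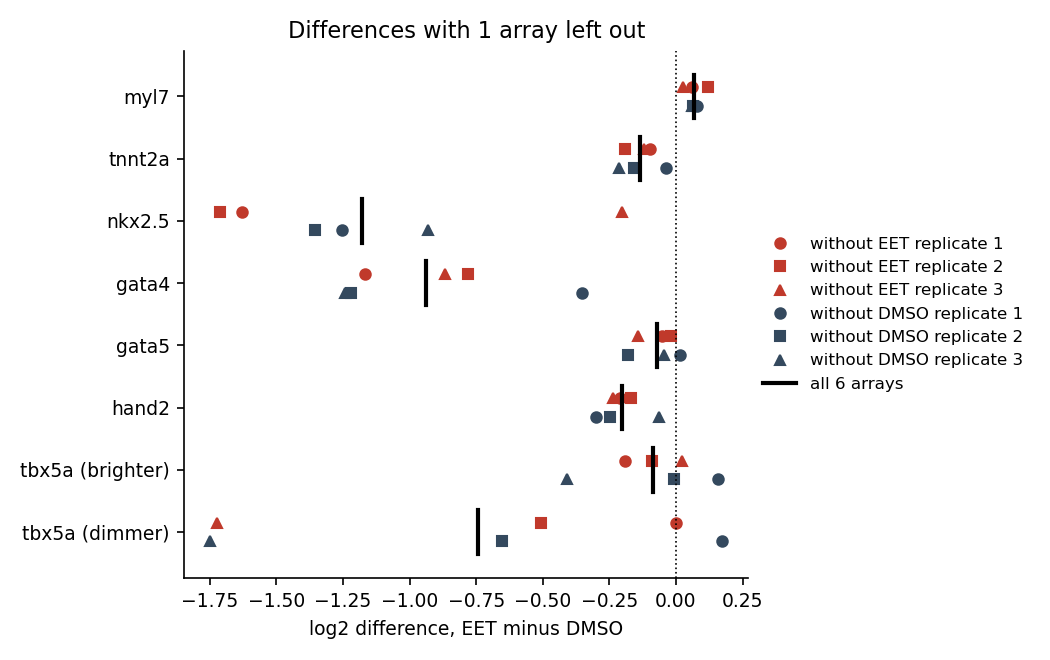
Log2 difference, EET minus DMSO (x axis), of each heart muscle and heart field probe set with all 6 arrays (black bar) and with 1 array left out (markers: red for an EET array, dark blue for a DMSO array, the shape giving the replicate). For myl7 the values stay between 0.03 and 0.12 and for hand2 between -0.30 and -0.06, while nkx2.5 runs from -1.71 to -0.20 and the dimmer tbx5a probe set from -1.75 to 0.17.

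Across the whole series array medians were 4.81 to 4.82, and pairs of arrays correlated at 0.943 to 0.957. Principal component analysis of the brighter probe sets set replicate 3 of EET and of DMSO apart from the other 4 arrays on component 1, with 44.0% of the variance. Component 2, with 19.6% of the variance, set the EET arrays, all positive, apart from the DMSO arrays, all negative. The members followed no common pattern in the replicate 3 arrays. EET replicate 3 minus the mean of the other EET pools was 0.13 for myl7, -0.05 for tnnt2a, 0.21 for gata5 and 0.09 for hand2. DMSO replicate 3 minus the mean of the other DMSO pools was -0.02 for myl7, -0.24 for tnnt2a, 0.07 for gata5 and 0.42 for hand2. The EET departures of the dimmer members were -2.93 for nkx2.5, -0.21 for gata4, and -0.33 and 2.94 for the tbx5a probe sets, brighter first. In DMSO, in the same order, they were 0.75, -0.91, -0.97 and -3.02. An RNA quality reading, the 3' minus 5' log2 difference of the muscle actin control, was 2.14 to 2.30 in EET and 1.74 to 2.01 in DMSO. That of the GAPDH control was 0.94 to 1.27 in EET and 0.88 to 1.02 in DMSO.

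A list of 46 held other genes of the heart's contractile apparatus, calcium handling and natriuretic peptides. Its natriuretic peptide genes, nppb and nppal, were not measured. Of the 46 genes 19 were measured, with myh7, described above, among them. EET pools had a higher mean for 9 and a lower one for 10, the median difference being -0.04, against 48.6% lower and a median of 0.01 over 8793 genes with 1 probe set each. In limma 0 of the 19 passed over all probe sets, where 0% of all probe sets passed. In the brighter fit 0 of the 13 brighter ones passed, where 0.0774% of probe sets did. Of the 19 genes 1 had an unadjusted p under 0.05 in limma, against 4.66% of all genes. The groups did not overlap in 2 of the 19, against 12.1% of all genes, and both, ttn.2 and atp2a2b, were lower in EET.

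Titin, the giant elastic protein of the sarcomere, is encoded here by ttn.2, which the heart and skeletal muscle of zebrafish share. Its brightest probe set had levels of 9.59, 10.09 and 9.90 in EET, against 10.48, 10.40 and 10.56 in DMSO. All EET pools were lower than any DMSO pool, by a difference of -0.62 ± 0.14 (SE of the brighter fit; adjusted p = 0.463 in limma there and 0.884 over all probe sets). With 1 array left out the ttn.2 difference stayed between -0.73 and -0.48. The second brighter probe set of ttn.2 differed by -0.47 ± 0.20 (adjusted p = 0.738 in the brighter limma fit), its groups also apart, and the dim ones by 0.37 and -0.65. The actin 3' minus 5' reading lay apart between the groups too, and its part in the titin value was not tested. The sarcoplasmic calcium pump gene atp2a2b differed by -0.24 ± 0.11 (adjusted p = 0.739), without passing. At the other end of the brighter genes were desma, which encodes the muscle intermediate filament protein desmin, and the tropomyosin gene tpm4a. They differed by 0.19 ± 0.12 and 0.15 ± 0.12 (adjusted p = 0.824 and 0.871 in the brighter limma fit). The desma difference was 0.43 in the replicate 3 pair alone and 0.07 without both replicate 3 arrays.

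Skeletal muscle genes, which share titin and other sarcomere parts with the heart, gave 15 lower and 4 higher of 19 measured (median -0.07), where 48.6% of all genes were lower. In limma 0 passed, where 0% of all probe sets and 0.0774% of the brighter ones did. Of the 19 genes 1 had an unadjusted p under 0.05 in limma, against 4.66% of all genes. The groups did not overlap in 4, of which 3 were lower and 1 higher in EET, where 12.1% of all genes had groups apart. Their mean log2 level was 10.4 to 10.5 in EET pools and 10.5 to 10.6 in DMSO pools, and the groups overlapped there, the highest EET pool (10.524) lying above the lowest DMSO pool (10.511). Its part in the values of the contractile genes was not tested.

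Heart field, progenitor, valve and epicardial genes outside the set were read from a list of 51, of which 34 were measured. EET pools had a higher mean for 20 and a lower one for 14 (median difference 0.02). Among the 18 brighter ones 14 were higher and 4 lower (median 0.06), where 2773 of 5318 brighter genes were higher. In limma 0 passed over all probe sets and 0 in the brighter fit, where 0% of all probe sets and 0.0774% of the brighter ones passed. The brighter genes at the ends were tbx3a, a T-box gene of the conduction system in mammals, at -0.25 ± 0.12, and the Notch target hey1 at -0.24 ± 0.10 (adjusted p = 0.767 and 0.739 in the brighter limma fit). At the other end were irx3a, an Iroquois homeobox gene, at 0.23 ± 0.10 (adjusted p = 0.739) and the flow-responsive valve gene klf2a at 0.21 ± 0.16 (adjusted p = 0.851). The klf2a value rested on EET replicate 1, without which it was 0.04.

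The groups did not overlap in 3 of the 34, against 12.1% of all genes: hey1 was lower, and irx3a and the Notch target hey2 were higher in every EET pool. Levels of hey2, a gene of the heart and vessels, were 4.403, 4.26 and 4.09 in EET, against 3.99, 4.06 and 3.70 in DMSO, a difference of 0.34 ± 0.15 (adjusted p = 0.930 in limma). In the brighter limma fit hey1 and irx3a had an unadjusted p under 0.05 (0.0474 and 0.0458), which 6.66% of the brighter probe sets had. In the fit over all probe sets only tbx20, a T-box gene of the early heart, did so, against 4.66% of all genes. Its dim probe set read 1.19, 2.42 and 2.01 in EET, against -0.94, -0.97 and 1.55 in DMSO, with a difference of 1.998 ± 0.786 (unadjusted p = 0.0481, adjusted p = 0.930 in limma), and 0.11 on the log2(2^value + 32) scale, which compresses low levels. The tbx20 groups overlapped through DMSO replicate 3, and in the replicate 3 pair alone the difference was 0.46. Both hey2 and tbx20 were singled out after their values were seen.

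**Figure D5:**
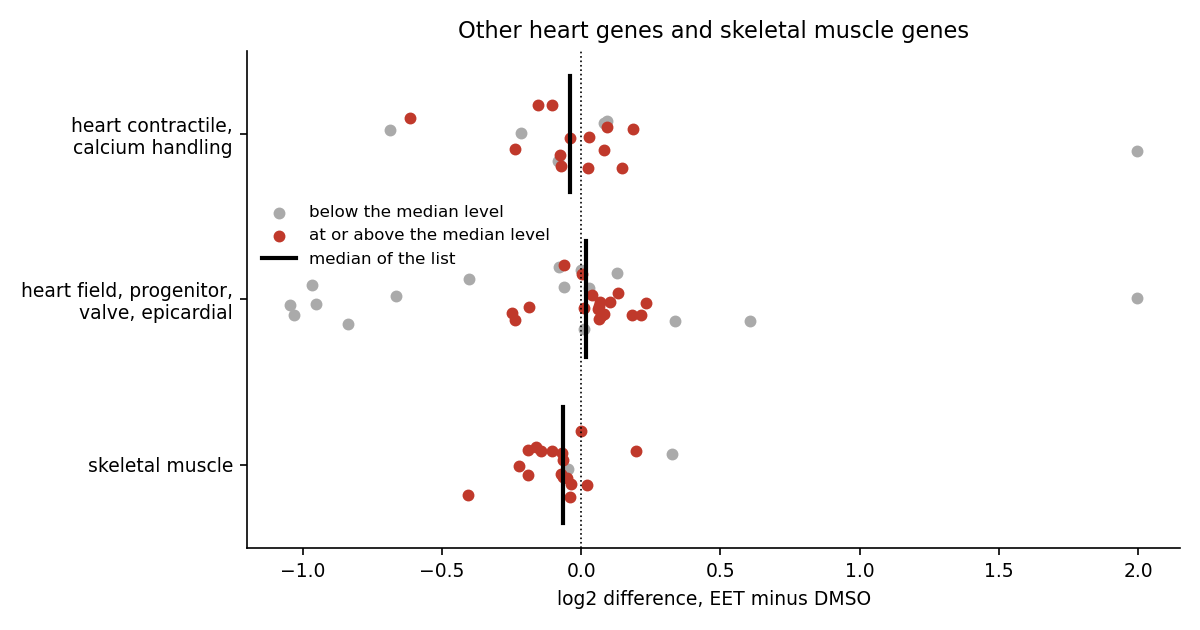
Log2 difference, EET minus DMSO (x axis), of each measured gene of the other heart lists and of skeletal muscle, 1 probe set a gene, with red points at or above the median level and grey points below it (vertical scatter within a row has no meaning). The black bars are the list medians, -0.04 for contractile and calcium genes, 0.02 for heart field genes and -0.07 for skeletal muscle genes.

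Tissues that share a field factor with the heart were read in the same way. Over the whole array 0% of probe sets passed in limma, and 0.0774% of the brighter ones in the brighter fit. Of 10 endoderm, liver and gut genes 7 were higher and 3 lower (median 0.12), and 0 passed in limma. Their groups did not overlap in 3, all higher in EET, where 12.1% of all genes had groups apart. These were sox17, at a mean level of 0.51, hhex and foxa3. The lowest EET and highest DMSO pools were 4.78 and 4.76 for hhex, and 4.95 and 4.91 for foxa3. In limma 0 of the 10 endoderm, liver and gut genes had an unadjusted p under 0.05. Of 10 genes of the pharyngeal arches and autonomic neural crest 4 were higher and 6 lower (median -0.02), and 0 passed. Of 6 endocardial and vessel genes 3 were higher and 3 lower (median 0.01), and 0 passed. Groups were apart in 0 of the arch, neural crest or vessel genes. Of 8 pectoral fin bud genes other than tbx5a 4 were higher and 4 lower (median -0.28). The groups did not overlap in 3 of them, all lower in EET, where 12.1% of all genes had groups apart. These were and2, and1 (-0.72) and hoxa13b (-0.57), the last at a mean level of 3.17. Of the others fgf24 (0.70), fgf10a (0.13), hoxd13a (0.04) and sall1a (0.01) were higher, and sall4 (-1.15, mean level 0.08) was lower. An unadjusted p under 0.05 in limma was found for 3, against 4.66% of all genes. Of the 8 genes 1, the fin fold gene and2, passed in the brighter limma fit, where 0.0774% of probe sets did. Levels of and2 were 7.46, 7.28 and 7.13 in EET, against 8.70, 8.78 and 8.55 in DMSO, a difference of -1.38 ± 0.12 (adjusted p = 0.00994 in that fit, 0.161 over all probe sets in limma), where the brighter tbx5a probe set differed by -0.09. No probe set, and2 included, was called in the brighter fit without EET replicate 2 or without DMSO replicate 1.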

How the data were processed

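Biotin-labelled RNA from 6 µg of total RNA was read on 1-colour Affymetrix arrays (labels' protocols). The authors' deposited values are log2 values, 1 per probe set and array; background correction, probe summary and scaling are not given in the sources used here. The log base was settled from the values: the highest, 13.63, read as a natural log would be 829979, above the 65535 of a 16-bit scanner. Of 15617 probe sets 115 controls were left out. Symbols came from the platform annotation (10795 tested probe sets with 1 symbol, 135 with several, 4572 with none), updated through Entrez identifiers in RefSeq's GRCz12tu table (10711 matched, 1 changed). No coordinates or sequences are given.

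EET was set against DMSO with R 4.3.3 and limma 3.58.1 (lmFit, then eBayes, 2-sided, no covariates, Benjamini-Hochberg over all 15502 probe sets, calls at an adjusted p under 0.05), and again over the 7751 probe sets at or above the median level. The brighter fit was tested on simulated data with independent noise on each array and large changes in brighter probe sets. That test does not cover the dimmer members, small differences or a shift shared by the replicate 3 arrays. The number of arrays limits the precision. For the lists, the probe set with the highest mean stood for a gene. The 7 lists were heart contractile and calcium genes, heart field genes, skeletal muscle, pectoral fin bud, endoderm with liver and gut, pharyngeal arch with autonomic neural crest, and endocardium with vessels. Named are all members, genes called in a heart list, and the 2 highest and 2 lowest brighter genes of each heart list. Named besides are myh7, for its synonym, and hey2, tbx20, the pectoral fin bud genes and the endoderm genes with groups apart, after their values were seen. Members and lists were chosen with earlier results of these data known. Alternatives changed the scaling (quantile, median), the filter on dim probe sets, the scale (log2(2^value + 32)), the variance model (trend with robust, weights per array), the design (replicate numbers as a block, a term for replicate 3) and the arrays (without both replicate 3, without each array), besides an adjusted p under 0.10 and the mean of a gene's probe sets.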

Additional observations from a re-analysis of the deposited data

How the results depend on the processing

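The count of called heart muscle and heart field probe sets was 0 in every alternative run, over all probe sets and among the brighter ones. Their limma adjusted p ran from 0.797 to 0.99987 over the alternatives to the fit over all probe sets, filters on dim probe sets included. The count over all probe sets was 0, and 1 after median centring, 1 with array weights, 1 at an adjusted p under 0.10, 2 with log2(2^value + 32), 3 with trend and robust and 6 without probe sets below the median level. Among the brighter probe sets 6 were called, 10 with trend and robust, 12 with array weights, 12 with replicate 3 as a batch term and 0 to 6 with 1 array left out.

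The replicate block gave 12 there and changed no call of a heart gene. Deviations from the group means of arrays with the same number had correlations of 0.042, 0.056 and 0.148 over all probe sets. Over the brighter ones they were 0.177, 0.239 and 0.554. All were positive and the largest were those of replicate 3. The values of the 3 replicates are not independent, since deviations within a group cancel. The fit without the block was kept as the main one, which leaves any shared replicate shift in the spread, and both counts are given.

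Differences turned to the other side of 0 without both replicate 3 arrays for nkx2.5 (0.048). In the replicate 3 pair alone they turned for gata5 (0.025), the brighter and dimmer tbx5a probe sets (0.34 and 3.23) and klf2a (-0.019). With 1 array left out, gata5 ran from -0.18 to 0.016, the brighter tbx5a from -0.41 to 0.16 and the dimmer from -1.75 to 0.17. The median of the contractile and calcium genes ran from -0.068 to 0.035 over the same fits. That of the heart field genes was -0.065 without both replicate 3 arrays and 0.17 in the replicate 3 pair. The cause of these shifts was not tested. Either filter on dim probe sets leaves no value for gata4, nkx2.5, tbx20 and the dimmer tbx5a probe set, and the filter at the median level none for hey2 and the brighter tbx5a probe set. The log2(2^value + 32) scale kept every direction of the members and of the named genes of the heart lists, and shrank the dim ones most. No value of and2 is given on that scale.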
